A study of Homo sapiens with 12 samples.

Results

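HIF factors and hypoxia target genes were followed through the inhibition of PI3K and EZH2 in C4.2B cells. The set held 10 genes, taken by name out of 23228 genes in the count files: HIF1A, EPAS1, EGLN1, EGLN3, VEGFA, ADM, CA9, BNIP3, NDRG1 and C7orf68, the older symbol of HILPDA. All 10 had at least 1 read, and 8 were abundant enough to test. CA9 and ADM were not, with 17 and 58 reads over all 12 libraries.

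C4.2B is an established human castration-resistant prostate cancer line. There were 4 arms of 3 polyA libraries, named A, B and C. DMSO received vehicle, GDC 0.5 µM of GDC-0941, an inhibitor of all class I PI3K isoforms, GSK 5 µM of GSK126, an inhibitor of the histone methyltransferase EZH2, and COMBO both agents at those doses. GSK and COMBO were pretreated with GSK126 for 6 days, while DMSO and GDC had vehicle over that time, and the last 24 h of treatment took place in medium with 10% charcoal-stripped serum in every arm. The replicates were plates of a single cell line, seeded after pretreatment had begun, so p-values measure the spread between plates.

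HIF proteins are heterodimers of an oxygen-labile alpha subunit and the stable partner ARNT. In the presence of oxygen, prolyl hydroxylases of the EGLN family mark the alpha subunit, VHL recognises the mark, and the subunit is degraded. When oxygen falls the dimer accumulates and binds a short core sequence in its target genes, which serve angiogenesis, pH control, mitophagy and lipid storage. EGLN1 and EGLN3 are themselves targets, which closes a feedback loop. Because the alpha subunit is controlled by its degradation, HIF1A transcripts do not measure the protein. Every value below is a transcript level in bulk RNA, in which fewer expressing cells and less RNA per cell cannot be told apart.

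The HIF core sequence was sought in the promoters of the members, because these are the genes whose transcripts are compared. It was taken as ACGTG or GCGTG on either strand, in RefSeq windows of 250 bases before and 50 bases after a listed start of each gene (GRCh38.p14). Where several starts were listed, only the first was searched. The windows of EGLN3 (chr14:33951025-33951324) and EPAS1 lie inside the gene positions given below, not at their outer ends. A window was at hand for 7 members, EGLN1, EGLN3, EPAS1, HIF1A, CA9, ADM and BNIP3, and not for VEGFA, NDRG1 or C7orf68. ACGTG occurred in 21.4% of 35116 promoter windows, GCGTG in 36.5% and either in 48.4%. Of the 7 windows, 6 held a match. The windows were 62.0% (CA9) to 80.7% (BNIP3) G or C, and both motifs hold CG. The share among windows of like composition was not determined. BNIP3 held 6, with 2 of them the overlapping strands of a single CACGTG, the sequence that MYC and MAX bind and that 7.26% of windows hold. EGLN1, EPAS1, CA9, HIF1A and ADM held 1 match each and EGLN3 held 0. A match describes letters and is not evidence of binding. EGLN3, with 0 matches, also fell in every treated arm, and its window is not shown. The 4 windows shown are those of BNIP3 and EGLN1, which fell in every treated arm, EPAS1, which rose with GSK126, and CA9, which was almost silent. They are written 5′ to 3′ on the strand of the gene, with matches in capitals, and a match on the opposite strand appears as CACGT or CACGC. Their positions are chr10:131981874-131982173 on the minus strand for BNIP3, chr1:231422238-231422537 on the minus strand for EGLN1, chr2:46297157-46297456 on the plus strand for EPAS1 and chr9:35673678-35673977 on the plus strand for CA9.
BNIP3: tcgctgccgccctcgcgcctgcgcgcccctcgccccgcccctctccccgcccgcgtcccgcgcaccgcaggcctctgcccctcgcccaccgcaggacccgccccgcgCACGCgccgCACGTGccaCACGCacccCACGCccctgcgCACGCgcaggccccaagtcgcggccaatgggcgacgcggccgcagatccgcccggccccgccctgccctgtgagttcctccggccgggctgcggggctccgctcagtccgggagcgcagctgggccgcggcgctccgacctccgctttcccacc
EGLN1: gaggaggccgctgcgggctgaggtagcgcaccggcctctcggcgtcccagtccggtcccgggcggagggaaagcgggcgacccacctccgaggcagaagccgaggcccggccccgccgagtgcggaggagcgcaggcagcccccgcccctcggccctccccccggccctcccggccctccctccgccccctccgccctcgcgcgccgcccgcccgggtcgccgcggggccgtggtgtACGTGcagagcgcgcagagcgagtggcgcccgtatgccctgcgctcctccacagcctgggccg
EPAS1: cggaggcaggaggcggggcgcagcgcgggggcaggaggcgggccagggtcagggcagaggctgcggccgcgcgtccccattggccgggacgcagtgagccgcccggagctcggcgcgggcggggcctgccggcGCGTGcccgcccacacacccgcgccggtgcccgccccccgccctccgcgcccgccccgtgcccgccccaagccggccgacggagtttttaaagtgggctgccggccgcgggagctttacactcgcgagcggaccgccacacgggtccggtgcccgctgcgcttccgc
CA9: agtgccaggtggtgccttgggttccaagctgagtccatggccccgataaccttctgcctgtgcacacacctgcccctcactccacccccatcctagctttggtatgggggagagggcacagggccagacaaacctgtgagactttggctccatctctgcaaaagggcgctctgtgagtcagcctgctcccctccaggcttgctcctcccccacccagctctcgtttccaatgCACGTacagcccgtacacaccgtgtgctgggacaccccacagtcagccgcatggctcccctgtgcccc

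Between 8785218 and 44437751 reads per library were assigned to genes, and DMSO was the most uneven arm (10199514 to 44437751). The share of all reads that the counting tool HTSeq assigned to no feature was 14.2% ± 0.481 for DMSO, 15.6% ± 0.268 for GDC, 18.8% ± 0.264 for GSK and 21.8% ± 1.07 for COMBO (SD, n = 3). Where these reads lie, inside or outside genes, is not known from the counts. The part of this share in the results was not tested. All 4 luminal prostate markers (KLK3, KLK2, TMPRSS2 and FOLH1) were above 3 counts in every library. Of 10 markers of endothelial, fibroblast, leukocyte and basal cells, only VWF and COL1A1 were above 3 counts in every library, and the list summed to between 12.8 and 14.6 CPM (counts scaled to library size by TMM) for DMSO, 15.6 and 20.6 for GDC, 30.6 and 42.8 for GSK, and 33.5 and 51.0 for COMBO. PECAM1 had 2 reads, PTPRC 12 and CD3E 0 over all libraries.

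Against DMSO, GDC lowered 6 of the 8 tested members and raised 1. The corresponding shares of all 14189 tested genes were 20.0% lower and 20.0% higher (quasi-likelihood test of edgeR, with a threshold of 0.05 on the Benjamini-Hochberg p). GSK lowered 5 members and raised 3, beside 35.7% lower and 40.0% higher among all genes. COMBO lowered 5 and raised 2, beside 39.2% and 43.3%. The median log2 fold change of the tested members was -0.25 in GDC, -0.36 in GSK and -0.49 in COMBO, against 0.016, 0.058 and 0.054 over all tested genes. These 3 comparisons share the DMSO libraries. Scaling by library totals moved the median of all genes by 0.15 in GSK and 0.21 in COMBO, and with it higher calls made up 64.0% and 63.3% of all calls, in place of 52.8% and 52.5%. In GDC 2841 genes were higher and 2843 lower, but higher calls made up 35.9% of all calls with no filter, 38.7% with DESeq2, 40.2% with its size factors and 58.5% with library totals. Changes are given relative to TMM. Library totals moved 6 called member values by over 1.5 times without a change of sign, and these are given with each gene.

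**Figure D1:**
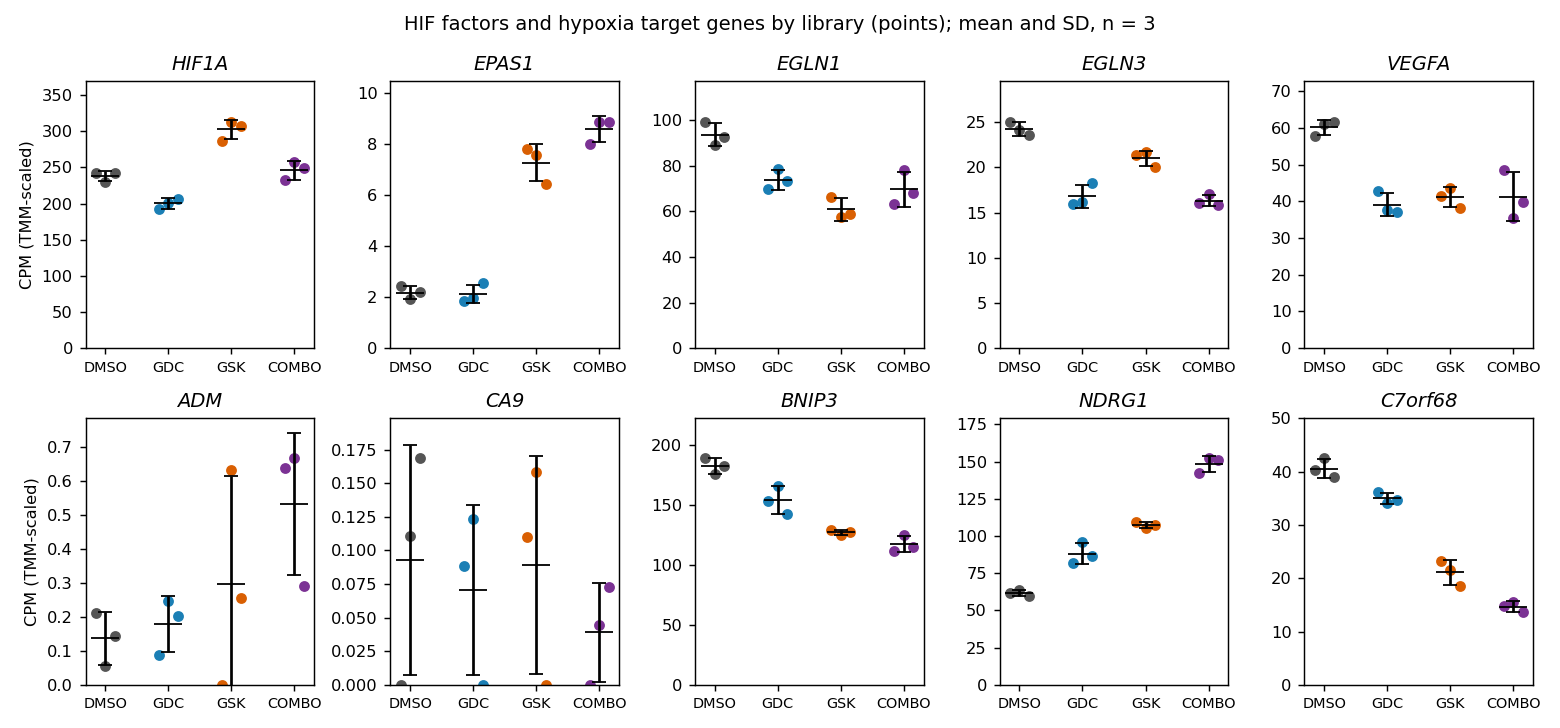
Expression of the 10 members in each library, in TMM-scaled CPM on a linear axis from 0 (points, replicates A, B and C from left to right), with the arm mean and SD (n = 3, bars that would pass below 0 end there). NDRG1 climbed from 61.8 in DMSO to 148 in COMBO and C7orf68 fell from 40.6 to 14.7, whereas CA9 did not exceed 0.168 CPM and ADM did not exceed 0.666 CPM in any library.

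HIF1A encodes the alpha subunit of HIF-1 (chromosome 14, 61695513 to 61748259). Its level was 242, 229 and 242 CPM in DMSO A, B and C, against 193, 201 and 207 for the GDC libraries, 287, 313 and 307 for the GSK libraries and 232, 257 and 249 for the COMBO libraries. GDC lay below every DMSO library and GSK above, while COMBO overlapped DMSO. The agents thus moved the transcript in opposite directions, by a log2 fold change of -0.25 in GDC (adjusted p = 5.0e-04, SE 0.049) and 0.35 in GSK (adjusted p = 2.42e-06, SE 0.049). In COMBO the difference was 0.049 (95% interval -0.053 to 0.15, adjusted p = 0.357), and scaling to library totals instead gave 0.26 (adjusted p = 4.27e-05). Adding GDC-0941 to GSK126 changed HIF1A by -0.30 (adjusted p = 4.92e-05, SE 0.049), close to its effect alone, and the interaction was -0.050 (95% interval -0.20 to 0.095, adjusted p = 0.662). COMBO exceeded GDC by 0.30 (adjusted p = 1.81e-05, SE 0.049), and by 0.47 when scaled to library totals (adjusted p = 2.21e-08). The interaction is COMBO minus GDC minus GSK plus DMSO on the log2 scale, and is 0 where single-agent changes add up.

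EPAS1 encodes the alpha subunit of HIF-2 (chromosome 2, 46293667 to 46386697). It was at 2.42, 1.94 and 2.19 CPM in DMSO and 1.86, 1.97 and 2.55 in GDC, which overlap. It reached 7.80, 7.59 and 6.44 CPM in GSK, and 8.01, 8.88 and 8.88 in COMBO, so every library that received GSK126 stood above all that did not. The log2 fold change was 1.75 in GSK (adjusted p = 2.31e-09, SE 0.15), or 3.36-fold, and 1.99 in COMBO (adjusted p = 4.32e-11, SE 0.14), or 3.98-fold. In COMBO 9.37% of tested genes had a larger absolute change than EPAS1, the lowest share among the tested members. The next lowest shares were those of C7orf68 (17.6%) and NDRG1. The share was 49.6% for BNIP3, 54.5% for EGLN3, 54.6% for VEGFA, 64.9% for EGLN1 and 95.6% for HIF1A. In GSK it ran from 7.82% for EPAS1 to 77.5% for EGLN3. For EPAS1, GDC gave -0.0089 (95% interval -0.39 to 0.38, adjusted p = 0.981). DMSO had 149 reads of EPAS1 in all, so changes inside that interval were not detectable at this depth. COMBO and GSK differed by 0.24 (95% interval -0.019 to 0.51, adjusted p = 0.122).

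The alpha subunits were also compared per kilobase of the canonical GENCODE 44 transcript. HIF1A exceeded EPAS1 on this scale by 143-fold ± 12.2 for DMSO, 125-fold ± 16.4 for GDC, 54.8-fold ± 7.18 for GSK and 37.4-fold ± 0.748 for COMBO (SD, n = 3). HIF1A therefore remained the major alpha-subunit transcript in every arm, and the excess was smaller in each GSK126 library, at 36.6 to 62.3, than in any library without it, at 106 to 155. Among the 10 members the order per kilobase in DMSO was BNIP3 (118 CPM per kb), HIF1A (60.3), C7orf68 (29.8), EGLN1 (21.6), NDRG1 (20.4), VEGFA (16.7), EGLN3 (8.96), EPAS1 (0.423), ADM (0.0916) and CA9 (0.0602). The ranges of EGLN1 and NDRG1 overlapped there, as did those of ADM and CA9. In COMBO, NDRG1 had moved to the third place at 49.1 CPM per kb and C7orf68 to the sixth at 10.8, where its range overlapped that of VEGFA.

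EGLN1, also called PHD2, is the main oxygen-sensing prolyl hydroxylase (chromosome 1, 231363751 to 231422287). Its level was 99.3, 89.1 and 92.6 CPM in DMSO A, B and C, against 69.6, 78.5 and 73.3 for the GDC libraries, 66.5, 57.3 and 58.7 for the GSK libraries and 63.0, 78.0 and 67.9 for the COMBO libraries. Every treated library lay below every DMSO library, with the lowest mean in GSK. The log2 fold change was -0.33 in GDC (adjusted p = 0.0010, SE 0.072), -0.62 in GSK (adjusted p = 2.90e-07, SE 0.075) and -0.42 in COMBO (adjusted p = 2.00e-05, SE 0.071). With library totals the COMBO value was -0.21 (adjusted p = 0.00779). COMBO was thus less reduced than GSK, by 0.21 (adjusted p = 0.034, SE 0.076), although the libraries overlapped. COMBO and GDC differed by -0.082 (95% interval -0.24 to 0.071, adjusted p = 0.312), which passed the threshold without COMBO B (-0.17, adjusted p = 0.0311). The call against GSK was lost without COMBO B (0.11, adjusted p = 0.233), GSK B (0.19, adjusted p = 0.0916) or GSK C (0.18, adjusted p = 0.110).

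EGLN3, the prolyl hydroxylase PHD3, is strongly hypoxia-induced in many cells (chromosome 14, 33924227 to 34462774). It was at 25.0, 24.1 and 23.6 CPM in DMSO A, B and C, against 16.0, 16.1 and 18.2 for the GDC libraries, 21.3, 21.7 and 20.0 for the GSK libraries and 16.1, 17.0 and 15.9 for the COMBO libraries. GDC and COMBO overlapped each other and lay below GSK, which lay below DMSO. EGLN3 fell by 0.52 on the log2 scale in GDC (adjusted p = 1.82e-05, SE 0.074) and by 0.56 in COMBO (adjusted p = 5.69e-07, SE 0.072), the latter value being -0.35 with library totals (adjusted p = 1.65e-04). The smaller difference in GSK (-0.20, adjusted p = 0.0206, SE 0.075) was not past the threshold without GSK C (-0.16, adjusted p = 0.0973) or with library totals (-0.047, adjusted p = 0.605). The EGLN3 annotation overlaps SPTSSA, another counted gene, so its reads are uncertain.

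VEGFA encodes the principal angiogenic ligand of the HIF response (chromosome 6, 43770184 to 43786487). Its level was 57.9, 61.0 and 61.6 CPM in DMSO A, B and C, against 42.7, 37.5 and 37.1 for the GDC libraries, 41.3, 43.6 and 38.2 for the GSK libraries and 48.5, 35.5 and 39.8 for the COMBO libraries. All 9 treated libraries lay below DMSO and the 3 treated arms overlapped, with COMBO the most scattered. The log2 fold changes were nearly equal, at -0.63 in GDC (adjusted p = 1.05e-05, SE 0.086), -0.56 in GSK (adjusted p = 1.08e-05, SE 0.088) and -0.56 in COMBO (adjusted p = 4.37e-06, SE 0.084). Under library totals COMBO stood at -0.35 (adjusted p = 0.00117). Adding GDC-0941 to GSK126 changed VEGFA by 0.0015 (95% interval -0.19 to 0.19, adjusted p = 0.992). COMBO and GDC differed by 0.079 (95% interval -0.11 to 0.27, adjusted p = 0.430), which passed the threshold without COMBO B (0.20, adjusted p = 0.0326) and with library totals (0.25, adjusted p = 0.0196).

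ADM encodes adrenomedullin, a vasodilator peptide (chromosome 11, 10305073 to 10307397). Its reads numbered 2, 1 and 6 in DMSO A, B and C, against 1, 4 and 3 for the GDC libraries, 0, 8 and 3 for the GSK libraries and 11, 15 and 4 for the COMBO libraries. The ratio of pooled reads to DMSO, scaled for depth, was 1.45 for GDC (95% counting interval 0.486 to 4.23), 2.52 for GSK (0.949 to 6.88) and 4.31 for COMBO (1.99 to 10.3). Each COMBO library lay above each DMSO library in CPM, at 0.639, 0.666 and 0.291 against 0.211, 0.0553 and 0.144. With no filter on low counts the COMBO change had an adjusted p of 0.00162 in edgeR, and 0.0330 in DESeq2. Even in COMBO, ADM stayed under 1 CPM.

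CA9 encodes the cell-surface carbonic anhydrase IX, a widely used hypoxia marker (chromosome 9, 35673928 to 35681159). It had 0, 2 and 7 reads in DMSO A, B and C, against 1, 2 and 0 for the GDC libraries, 1, 2 and 0 for the GSK libraries and 0, 1 and 1 for the COMBO libraries. No arm stood apart, and the pooled ratios to DMSO were 0.543 (95% counting interval 0.0945 to 2.18), 0.687 (0.120 to 2.75) and 0.287 (0.0302 to 1.39). A change of CA9 was not detectable at this depth.

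BNIP3 encodes a mitophagy receptor of the outer mitochondrial membrane (chromosome 10, 131967684 to 131981967). It was at 189, 176 and 183 CPM in DMSO A, B and C, against 153, 166 and 142 for the GDC libraries, 129, 125 and 128 for the GSK libraries and 112, 125 and 115 for the COMBO libraries. The arms stepped down in that order, with overlap between GSK and COMBO. The log2 fold change was -0.24 in GDC (adjusted p = 0.00167, SE 0.056), -0.52 in GSK (adjusted p = 7.55e-08, SE 0.057) and -0.63 in COMBO (adjusted p = 1.92e-09, SE 0.056). COMBO lay below GDC by -0.39 (adjusted p = 3.49e-06, SE 0.057), or -0.22 by library totals (adjusted p = 0.00128), while its difference from GSK was -0.11 (95% interval -0.23 to 0.0072, adjusted p = 0.117) and passed the threshold without COMBO B (-0.17, adjusted p = 0.0277). GENCODE names 44 pseudogenes of BNIP3, and 1 each of HIF1A, EGLN1 and EGLN3, so the reads of these genes are uncertain to that extent.

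C7orf68, now HILPDA, encodes a small lipid-droplet protein that inhibits the triglyceride lipase ATGL (chromosome 7, 128455849 to 128458418). Its level was 40.3, 42.5 and 39.0 CPM in DMSO A, B and C, against 36.2, 34.1 and 34.7 for the GDC libraries, 23.3, 21.5 and 18.6 for the GSK libraries and 14.8, 15.6 and 13.6 for the COMBO libraries. No arm overlapped another, and it had the deepest fall of the tested members in GSK and COMBO. The log2 fold change was -0.21 in GDC (adjusted p = 0.0199, SE 0.070), -0.95 in GSK (adjusted p = 9.55e-10, SE 0.077) and -1.45 in COMBO (adjusted p = 3.88e-13, SE 0.076), which left 0.365 of the DMSO level. COMBO was lower than GDC by -1.24 (adjusted p = 1.63e-11, SE 0.079) and lower than GSK by -0.51 (adjusted p = 7.90e-05, SE 0.087).

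NDRG1, a differentiation-associated gene induced by both hypoxia and androgen, moved the other way (chromosome 8, 133237175 to 133302022). It was at 62.0, 63.9 and 59.7 CPM in DMSO A, B and C, against 82.0, 95.9 and 86.6 for the GDC libraries, 109, 106 and 108 for the GSK libraries and 142, 152 and 151 for the COMBO libraries. The arms were ordered in that sequence without overlap. NDRG1 rose by a log2 fold change of 0.52 in GDC (adjusted p = 9.01e-07, SE 0.057), 0.80 in GSK (adjusted p = 1.32e-10, SE 0.058) and 1.27 in COMBO (adjusted p = 2.44e-14, SE 0.056), or 2.41-fold. COMBO exceeded GDC by 0.75 (adjusted p = 1.58e-10, SE 0.055) and GSK by 0.47 (adjusted p = 8.62e-07, SE 0.055). The 4 luminal markers, some of them androgen-responsive, summed to 1830.4 to 1914 CPM in DMSO, 2894 to 2993 in GDC, 2733 to 3030.0 in GSK and 3730 to 4124 in COMBO, and their part in the NDRG1 result was not tested. The markers differed within that sum. FOLH1, at a mean of 1178 CPM in DMSO, was not called in GSK (0.061, adjusted p = 0.14), where KLK3, KLK2 and TMPRSS2 rose by 1.14, 1.32 and 1.56.

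**Figure D2:**
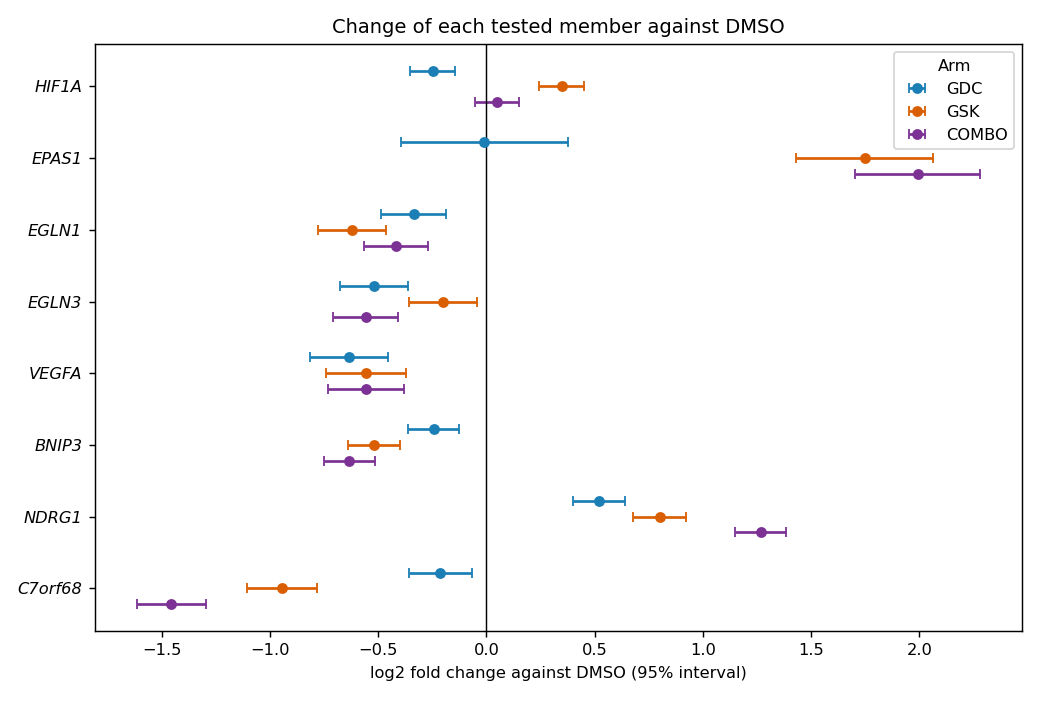
Log2 fold change against DMSO of the 8 tested members in GDC, GSK and COMBO (points, with 95% intervals). EGLN1, EGLN3, VEGFA, BNIP3 and C7orf68 lie below 0 in all 3 arms and NDRG1 above, while HIF1A is below in GDC and above in GSK, and EPAS1 is at 1.75 in GSK and 1.99 in COMBO.

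The interaction asked whether both agents together gave more or less than their separate changes added up. It was past the threshold for 2 of the 8 tested members, both above the sum, beside 4.86% above and 16.5% below among all genes. That balance among all genes depended on the settings: 22.7% of the calls lay above the sum, but 35.2% with DESeq2 size factors and 55.4% with no filter, where 1638 genes lay above and 1319 below. Leaving out a single library took the number below from 2344 to as few as 1279 (without GDC B). VEGFA departed by 0.64 (adjusted p = 0.00107, SE 0.13) and EGLN1 by 0.54 (adjusted p = 9.12e-04, SE 0.10). For VEGFA the single-agent changes summed to -1.19 and COMBO reached -0.56, and for EGLN1 they summed to -0.96 and COMBO reached -0.42. Both calls held in all 18 alternatives, with a range of 0.57 to 0.77 for VEGFA and 0.45 to 0.68 for EGLN1. The change on adding GDC-0941 was thus -0.63 for VEGFA and -0.33 for EGLN1 without GSK126, and 0.0015 and 0.21 with it. As given above, the 0.21 of EGLN1 lost its call when certain single libraries were left out.

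C7orf68 departed in the other direction, by -0.30 (95% interval -0.53 to -0.063, adjusted p = 0.0651), which was past the threshold without GSK C (-0.38, adjusted p = 0.0191) or COMBO B (-0.34, adjusted p = 0.0475). BNIP3, at 0.13 (adjusted p = 0.271), passed it without GDC B (0.26, adjusted p = 0.0318) and when low counts were kept (0.22, adjusted p = 0.0481). The interaction of NDRG1 was -0.052 (95% interval -0.22 to 0.11, adjusted p = 0.701), that of EGLN3 0.16 (-0.064 to 0.39, adjusted p = 0.314) and that of EPAS1 0.25 (-0.21 to 0.72, adjusted p = 0.462).

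**Figure D3:**
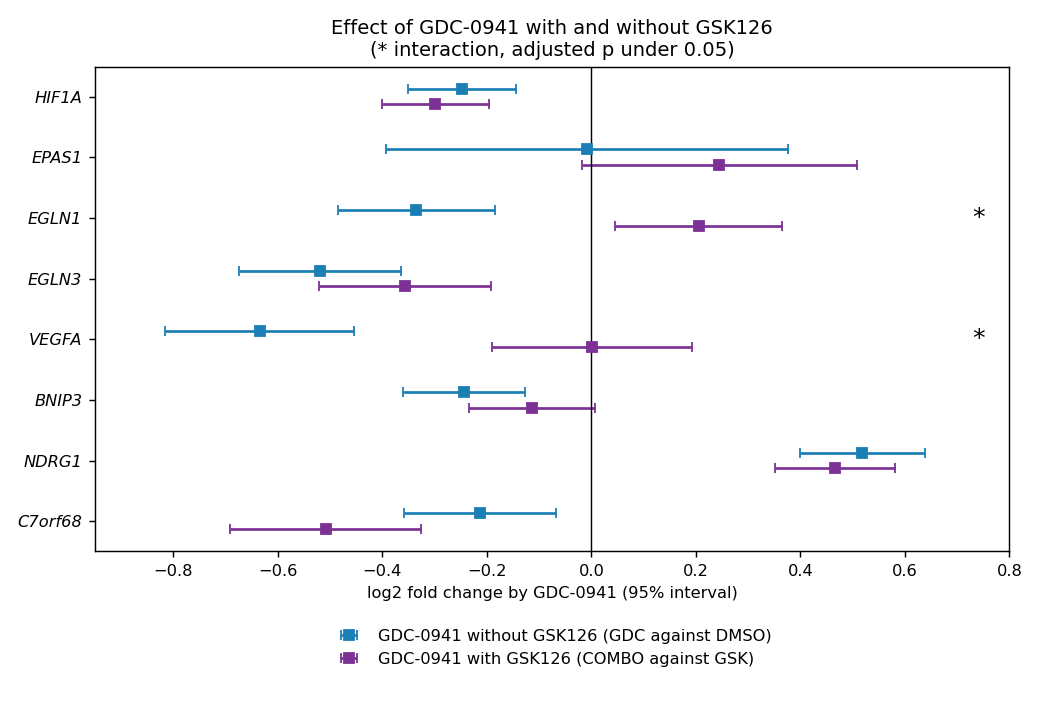
Log2 fold change by GDC-0941 without GSK126 (GDC against DMSO) and with it (COMBO against GSK) for the 8 tested members, with 95% intervals; stars mark an interaction with an adjusted p under 0.05. VEGFA moves from -0.63 to 0.0015 and EGLN1 from -0.33 to 0.21, whereas the intervals of HIF1A, EPAS1, EGLN3, BNIP3, NDRG1 and C7orf68 overlap.

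COMBO was then set against each single agent. Compared with GDC, 3 members were higher (HIF1A, EPAS1 and NDRG1) and 2 lower (BNIP3 and C7orf68), beside 37.9% higher and 38.0% lower among all genes. EPAS1 had the largest difference among the tested members, 2.0 (adjusted p = 2.44e-10, SE 0.15). Compared with GSK, 2 were higher (EGLN1 and NDRG1) and 3 lower (HIF1A, EGLN3 and C7orf68), beside 19.0% and 26.9%. With library totals, higher calls rose from 49.9% to 62.8% of all calls against GDC, and from 41.4% to 52.3% of all calls against GSK.

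The rest of the pathway was read from a list of 17 regulators, of which 15 were tested. GDC raised 5 and lowered 3, beside 20.0% higher and 20.0% lower among all genes. GSK raised 7 and lowered 6, beside 40.0% and 35.7%, and COMBO also raised 7 and lowered 6, beside 43.3% and 39.2%. The median log2 fold change in COMBO was 0.053, against 0.054 over all tested genes. ARNT2, a second partner of the alpha subunits, went from 9.75 ± 0.662 CPM in DMSO to 51.7 ± 5.28 in COMBO (SD, n = 3), a log2 fold change of 2.38 (adjusted p = 6.70e-16, SE 0.083), and was also raised in GDC (0.95) and GSK (1.75). BHLHE41, a transcriptional repressor, rose by 1.89 in GSK and 2.15 in COMBO (adjusted p = 8.41e-12 and 1.53e-13). CUL2, the scaffold of the VHL ubiquitin ligase, fell by 0.90 in COMBO (adjusted p = 1.13e-11, SE 0.057).

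ARNT, VHL and HIF1AN were named for their roles after their values had been seen. ARNT, the main partner subunit, stood at 98.1 ± 3.97 CPM with vehicle and 117 ± 0.276 with both agents (SD, n = 3), a log2 fold change of 0.25 (adjusted p = 3.91e-05). VHL fell by 0.55 in GSK and 0.37 in COMBO (adjusted p = 2.09e-07 and 1.79e-05), but rose by 0.16 in GDC (adjusted p = 0.0488). HIF1AN, the asparaginyl hydroxylase that blocks coactivator binding, had values of 60.8, 61.8, 61.5 and 61.5 CPM in DMSO, GDC, GSK and COMBO, and its change in COMBO was 0.02 (adjusted p = 0.638, SE 0.047). EGLN2 and HIF3A were not tested, with 11 and 4 reads over all libraries. EGLN2 shares its position with the counted readthrough gene RAB4B-EGLN2, which had 0 reads, so its level is not known from these counts.

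A further list held 41 other hypoxia targets, of which 36 were tested. GDC raised 7 and lowered 15, where 20.0% of all genes were higher and 20.0% lower. GSK raised 11 and lowered 17 (all genes, 40.0% and 35.7%), and COMBO raised 12 and lowered 19 (all genes, 43.3% and 39.2%). Their median log2 fold change was -0.14, -0.13 and -0.29, against 0.016, 0.058 and 0.054 over all tested genes, and individual values in COMBO ran from -2.57 to 3.06. RORA, a nuclear receptor, rose most, from 1.70 ± 0.180 to 13.6 ± 0.283 CPM in COMBO (SD, n = 3; log2 fold change 3.06, SE 0.14, adjusted p = 2.96e-14). LDHA, which makes lactate from pyruvate, fell most (-2.57, adjusted p = 7.40e-21, SE 0.041), followed by TFRC, the transferrin receptor (-2.27, adjusted p = 1.14e-17, SE 0.061).

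Close relatives of members were also in that list and are named after their values had been seen. BNIP3L, a mitophagy receptor related to BNIP3, rose by 0.43 in GDC, 0.56 in GSK and 1.03 in COMBO (adjusted p = 2.73e-05, 1.71e-07 and 5.95e-12), opposite to BNIP3 in each arm. CA12, a carbonic anhydrase of the cell surface like CA9, was readily detected, at 130 ± 3.09 CPM with vehicle and 42.6 ± 2.69 with both agents (SD, n = 3), a log2 fold change of -1.61 (adjusted p = 2.71e-16, SE 0.053).

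**Figure D4:**
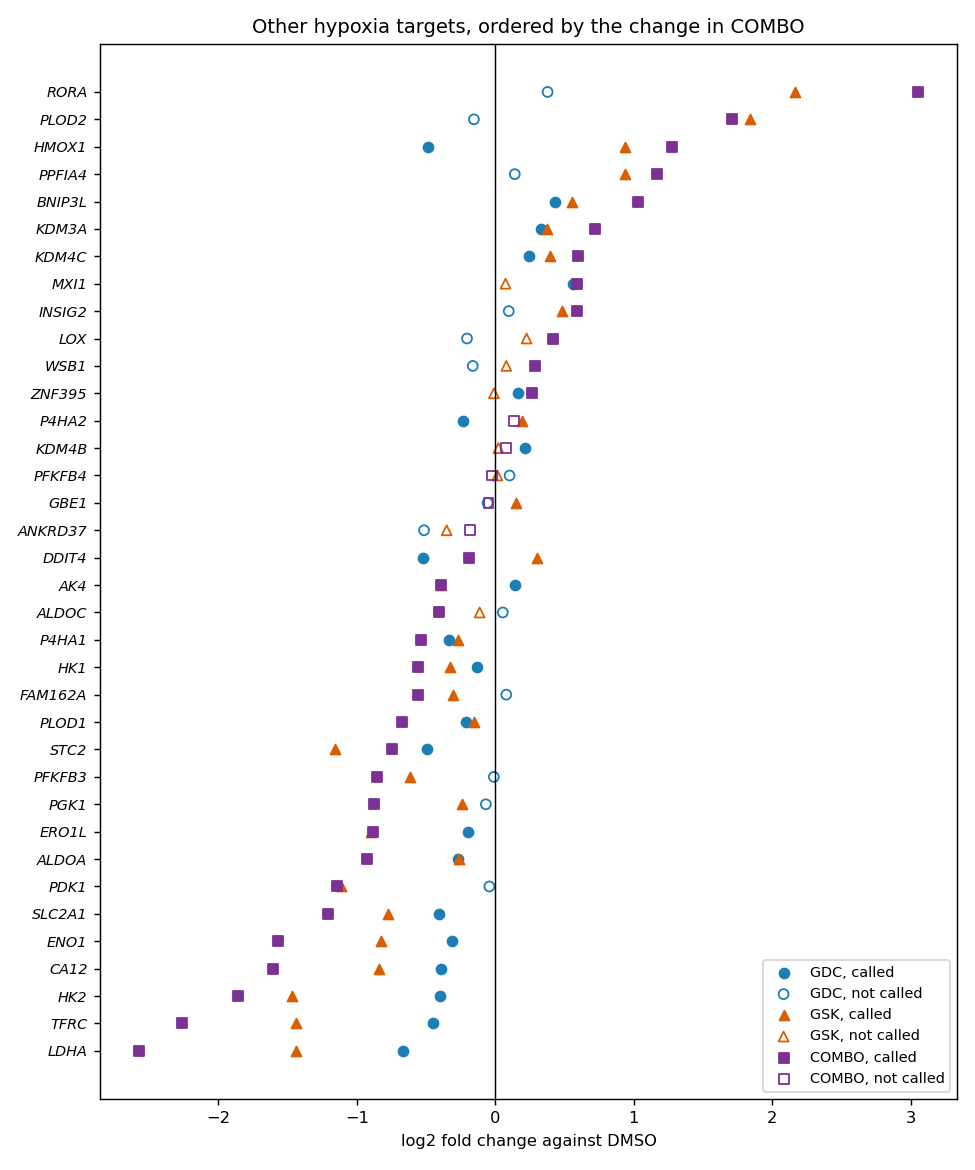
Log2 fold change against DMSO of the 36 tested genes in the list of other hypoxia targets, ordered by COMBO (filled symbols, adjusted p under 0.05; open symbols, not past it). In COMBO 19 genes were lower and 12 higher, from LDHA at -2.57 to RORA at 3.06.

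Of 14 relatives, ligands and receptors of VEGFA and ADM, 8 were tested. GDC raised 3 and lowered 1 (all genes, 20.0% higher and 20.0% lower). GSK raised 5 and lowered 1 (all genes, 40.0% and 35.7%), and COMBO raised 6 while the other 2 did not pass the test (all genes, 43.3% and 39.2%). NRP1, a co-receptor of VEGFA, went from 118 ± 6.06 CPM in DMSO to 171 ± 6.71 with GDC-0941, 392 ± 18.1 with GSK126 and 508 ± 12.9 with both (SD, n = 3), and its log2 fold change in COMBO was 2.12 (adjusted p = 1.77e-18, SE 0.049). VEGFB rose by 1.38 in GSK and 1.62 in COMBO (adjusted p = 4.88e-10 and 8.01e-12), while VEGFA fell. ADM2, a peptide related to ADM, was lower in GSK (-0.72, adjusted p = 1.20e-07) and higher in COMBO (0.46, adjusted p = 5.61e-06). The signalling receptors of VEGFA were scarce, with 100 reads of FLT1 and 14 of KDR over all libraries.

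Each tested member was matched to the genes with the most similar profile, by the Euclidean distance over its 3 log2 fold changes against DMSO among 11396 genes. HIF1A lay nearest to TMEM62 (distance 0.0096), and EPAS1 to HIST1H2BC (0.092) and WLS (0.10). VEGFA lay nearest to SPAG1 (0.14) and SESN2 (0.18), and EGLN1 to CARS (0.056) and PLEKHA8 (0.058). EGLN3 lay nearest to ANKRD49 (0.10) and TRIM16 (0.13), and BNIP3 to CHKA (0.030) and EIF1AD (0.032). NDRG1 lay nearest to SYT4 (0.035) and SORBS3 (0.040), and C7orf68 to CEP152 (0.038) and TBRG4 (0.040). No member was among the 2 nearest genes of another.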

How the data were processed

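PolyA RNA from 12 plates of C4.2B cells was sequenced. The authors aligned reads to hg38 with STAR and made the deposited counts, unnormalized whole reads for each gene symbol, with HTSeq. Versions, annotation and strand setting are not given in the sources used here. The 5 HTSeq summary lines, 24.2% of all reads in DMSO to 32.4% in COMBO on average, stayed out of library sizes and tests. A deposited table of DESeq2-normalized values was not used here. There were 0 columns of per-sample values without a library.

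Counts were scaled by TMM and genes kept by filterByExpr (14189 of 23228). All 12 libraries entered a single quasi-likelihood fit in edgeR 4.0.16 (R 4.3.3) with 1 coefficient per arm. The test was two-sided, with Benjamini-Hochberg adjustment over all tested genes and a threshold of 0.05. SE is the log2 fold change over the root of its F statistic, and intervals are 95%. CPM uses the TMM-scaled library size. A count of 0 allows up to 3 counts, or 0.0675 to 0.341 CPM. Members with 10 DMSO reads or fewer have a ratio of pooled reads with an exact interval. These bounds reflect counting error alone. Within arms, libraries varied beyond sampling noise (chi-square per degree of freedom 1.76 to 6.18).

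Members and lists were chosen with earlier results of these data known. From each list the 3 called genes with the largest absolute change in COMBO are named, at a mean log2 CPM of at least 2, as are the 2 genes nearest each member. A few items, among them 1 nearest gene and some luminal markers, are not reported here. Gene positions (hg38) come from GENCODE 44, where 82.8% of the symbols were found, and overlaps were sought among those. Alternatives comprised another tool (DESeq2 1.42.0), other scaling (its size factors, or library totals), other filters (none, or an average of 1 CPM), only the compared arms, a replicate block and leaving out each library. Their use on counts over all genes was chosen after seeing the data.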

Additional observations from a re-analysis of the deposited data

Results flagged for a closer look

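For VEGFA and EGLN1 the effect of GDC-0941 differed with and without GSK126, by an interaction of 0.64 and 0.54 on the log2 scale (edgeR, adjusted p = 0.00107 and 9.12e-04). The GDC-0941 effect was -0.63 without and 0.0015 with GSK126 for VEGFA, and -0.33 and 0.21 for EGLN1. The 0.21 came from overlapping libraries and lost its call without COMBO B, GSK B or GSK C.

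Reads that HTSeq assigned to no feature, which no comparison used, made up 15.6% of reads in GDC, 18.8% in GSK and 21.8% in COMBO on average, above the 14.2% in DMSO.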

How the results depend on the processing

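The number of members called was within 1.5 times in every alternative. Over 19 alternatives it stayed at 7 in GDC against DMSO, and ran from 7 to 9 in GSK (8 as reported), 7 to 8 in COMBO (7), 5 to 7 in COMBO against GDC (5) and 4 to 5 in COMBO against GSK (5). Over 18 it ran from 2 to 3 in the interaction (2). Counts with no filter, with DESeq2 or with a library left out can include CA9 or ADM, which the main fit did not test. The 9 in GSK was reached without GSK A. Of 904 member changes recomputed, 890 kept their direction and side of the threshold or were not past it in either, 5 lost the call, 9 gained it and 0 changed sign when called. The causes were not tested.

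Among all genes, the interaction had 690 above and 2344 below the sum, but 1638 and 1319 with no filter and 1151 above with a mean of at least 1 CPM. Without 1 library it had up to 1178 above (without DMSO B; 1092 without COMBO A), and 1279 to 1410 below without DMSO A or C, GDC A, B or C, GSK A or B, or COMBO A. GDC had 1844 higher without DMSO C, in place of 2841. Higher calls made up 55.4% of the interaction calls with no filter.

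Taken over all arms, the replicate letters did not pair the libraries. Deviations from the arm mean correlated over 0.1 in 3 of 18 same-letter pairs (-0.17 to 0.27), and 4 of 12 libraries correlated best with their own letter. Between GDC and COMBO, however, same-letter pairs correlated at 0.17 (A), 0.27 (B) and 0.098 (C), against -0.24 to 0.10 for different letters. With the letter as a replicate block the members called were 7, 8, 7, 5, 5 and 2 in the 6 comparisons, as without it. CA9 and ADM are limited by depth, and EPAS1 in part.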
